A study of Mus musculus with 64 samples.

Results

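The 48 genes described here are genes whose products act in S phase, G2 phase and M phase of the cell cycle, from the commitment to divide to the separation of daughter cells. They were listed by name, by a rule that uses no measured value but was set with earlier results of these data known, and were found in the deposited counts by matching each Ensembl identifier to its mouse symbol. All 48 were present among 55487 counted genes, and all 48 were among the 14537 genes with enough counts to be tested. The cells were bone marrow-derived macrophages (BMMs), which are bone marrow cells of mice matured in culture with macrophage colony-stimulating factor from L929 fibroblast medium. Each of 16 groups held 4 libraries. The *Ahr*+/+ BMMs came from female C57BL/6JRj mice and the *Ahr*-/- BMMs, which lack the aryl hydrocarbon receptor (AhR), from C57BL/6 mice carrying the knockout, crossed back to the *Ahr*+/+ strain, all 8 to 12 weeks old. Every culture first spent 6 h with the AhR ligand benzo[a]pyrene (BaP, 1 µM), with indole-3-carbinol (I3C, 10 µM) or with 0.01% DMSO, the vehicle. The ligand groups and 1 DMSO group per genotype and time then received 10000000 heat-killed cells of *Salmonella enterica* serovar Enteritidis, called hk *S*.E., per ml for 3 h or 20 h, which activates pattern recognition receptors. The second DMSO group received no bacteria and is called unactivated. Marrow was taken from 4 mice per genotype, but the labels do not say which mouse a library came from, so p-values measure the spread between libraries. These are macrophages in dishes, and the *Ahr*-/- mice lack AhR in every cell type that gave rise to them.

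A cell that commits to divide raises D-type and E-type cyclins, which release E2F factors from the pocket proteins, and E2F factors switch on the genes for replication. MCM proteins are then loaded onto origins and fired by CDC45 and GINS, polymerases copy the DNA with PCNA as their clamp, and later cyclin B with CDK1 starts mitosis, in which the spindle, the kinetochores and the anaphase-promoting complex separate the chromosomes. Macrophages grown from marrow with macrophage colony-stimulating factor divide in culture, and bacterial products are known to halt that growth.

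Gene counts per library ran between 12152496 and 50644601 (median 24499165), except that 1 library, unactivated *Ahr*+/+ replicate 4 at 20 h, held 233047331. Levels are CPM, a gene's counts relative to the total of its library after TMM scaling, which sets the bulk of genes equal between libraries. A gene was called at an adjusted p below 0.01, by the quasi-likelihood test of edgeR with Benjamini-Hochberg adjustment over all tested genes. The 9 macrophage markers summed to 19000 to 36380 CPM and none lay under 1 CPM. Lymphocyte, mast cell, dendritic and stem cell markers summed to at most 4.66 CPM in any library. In each genotype the neutrophil list was higher at 3 h with hk *S*.E. (111 to 261 against 15.8 to 43.9 CPM in *Ahr*+/+ BMMs), and the fibroblast list was higher there too (7.07 to 12.4 against 0.502 to 0.828 CPM). The fibroblast list stood at 13.7 to 21.9 CPM in *Ahr*-/- BMMs with hk *S*.E. and DMSO at 3 h, at 15.8 to 29.5 CPM with BaP and at 12.7 to 21.2 CPM with I3C. Few genes carried these sums. With hk *S*.E. and DMSO at 3 h, 4 of the 5 fibroblast genes and 5 of the 10 neutrophil genes had means under 1 CPM in each genotype. The part of these markers in the results was not tested. The AhR repressor gene *Ahrr* separated the genotypes, at 17.2, 17.9, 20.7 and 18.9 CPM in *Ahr*+/+ and 0.656, 0.77, 1.03 and 1.18 CPM in *Ahr*-/- BMMs with BaP at 20 h. *Ahr* itself was counted in both genotypes (mean 3.17 CPM in *Ahr*+/+ and 6.63 CPM in *Ahr*-/- unactivated BMMs at 3 h), so its counts, taken over the whole gene, do not check the deletion.

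The promoters show what the list shares beyond its name. RefSeq promoter entries on GRCm38.p6, 250 bases before to 50 bases after the start, were found for 36 of the 48 genes (40 entries). The 12 without an entry were *Aurkb*, *Ccna2*, *Ccnd1*, *Ccne2*, *Cdc25c*, *Foxm1*, *Gins1*, *Gins2*, *Kif20a*, *Mcm4*, *Myc* and *Tpx2*. On either strand, the letters TTTGAA of the cell cycle homology region (CHR) were in 42.5% of these entries against 17.9% of all 32851 entries. The E2F cores TTCCCGC or TTGGCGC were in 37.5% against 6.81%, the CCAAT box in 82.5% against 37.4% and the AhR element core GCGTG in 52.5% against 32.4%. CHR letters lay in 13 of 18 genes of mitosis and chromosome structure and in 3 of 18 genes of G1 exit, licensing and DNA synthesis. E2F cores were divided the other way, with 11 of 18 early genes and 3 of 18 mitosis genes. A match is a description of the letters and not a bound site. Stretches of 4 genes are shown because these genes carry results and the stretches differ in the motifs they hold. *Mki67* encodes the Ki-67 protein that coats mitotic chromosomes, *Cdc20* an activator of the anaphase-promoting complex, *Ccnb2* a mitotic cyclin and *Mcm6* a subunit of the replicative helicase. Capitals mark TTTGAA, the E2F cores and CCAAT or its reverse complement, and each stretch reads 5′ to 3′ on the gene's strand up to 1 base before the start given by RefSeq. Each holds 150 bases, so matches elsewhere in the entry are not seen in it. *Ccnb2* has TTTGAA at positions -167 and 5 from the start, outside its stretch, and counts among the genes with CHR letters.

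Mki67 promoter, chr7:135716380-135716529, minus strand: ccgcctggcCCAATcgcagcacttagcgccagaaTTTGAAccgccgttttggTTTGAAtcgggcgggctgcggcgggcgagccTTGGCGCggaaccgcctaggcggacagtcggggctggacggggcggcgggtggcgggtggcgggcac
Cdc20 promoter, chr4:118437344-118437493, minus strand: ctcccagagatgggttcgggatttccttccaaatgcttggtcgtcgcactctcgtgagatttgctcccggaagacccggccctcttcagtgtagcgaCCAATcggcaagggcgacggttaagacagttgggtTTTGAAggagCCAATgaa
Ccnb2 promoter, chr9:70421555-70421704, minus strand: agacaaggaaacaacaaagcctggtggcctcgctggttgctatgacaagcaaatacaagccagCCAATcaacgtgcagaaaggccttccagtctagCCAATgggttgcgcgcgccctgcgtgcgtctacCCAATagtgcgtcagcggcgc
Mcm6 promoter, chr1:128359706-128359855, minus strand: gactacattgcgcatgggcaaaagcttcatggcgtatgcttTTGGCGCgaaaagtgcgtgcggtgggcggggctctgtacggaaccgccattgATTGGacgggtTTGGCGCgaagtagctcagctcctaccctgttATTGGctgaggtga

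The 8 genes given in full lie, on mm10 with the GENCODE M21 annotation, with *Mki67* on chr7:135689784-135716361, *Cdk1* on chr10:69335146-69352938, *Tpx2* on chr2:152847964-152895321, *Prc1* on chr7:80294450-80316259, *Pcna* on chr2:132249162-132253314, *Mcm6* on chr1:128331590-128359664, *Ccnd1* on chr7:144929931-144939925 and *Myc* on chr15:61985391-61990374. All 8 are protein-coding and their counts cover all annotated exons. In unactivated BMMs every one of the 48 genes was detected in every library, from a mean of 3.72 CPM for *Cdc25c* to 396 CPM for *Pcna* in *Ahr*+/+ cells at 3 h. Per exon length, *Pcna* had the highest level in unactivated *Ahr*+/+ BMMs at 20 h (166 RPKM, which is CPM per kilobase of exon), followed by the cyclin D1 gene *Ccnd1* (41.7 RPKM), *Mcm6* (40.8 RPKM) and *Ccnb2* (28.2 RPKM). The summed level of the 48 genes was 2457 ± 244 CPM at 3 h and 3414 ± 259 CPM at 20 h, and in *Ahr*-/- BMMs it was 1605 ± 169.8 and 2475 ± 557 CPM.

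**Figure D1:**
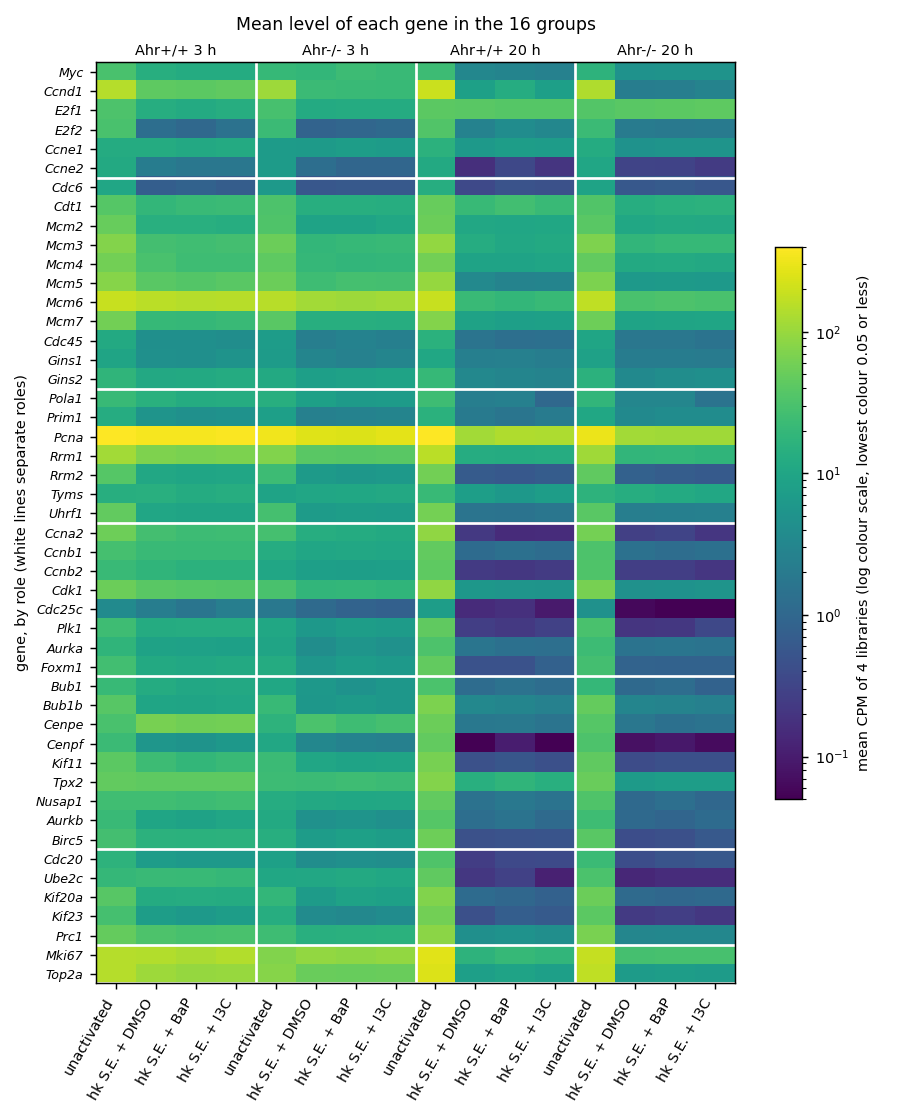
Mean CPM of each of the 48 genes (rows, grouped by role) in the 16 groups (columns), on a log colour scale whose lowest colour stands for 0.05 CPM or less. Mitosis genes such as Cenpf and Ccna2 are among the darkest at 20 h with hk S.E., while Pcna stays bright (116 CPM in Ahr+/+ BMMs with DMSO).

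Without activation, most of the mitosis genes were higher at 20 h than at 3 h. In unactivated *Ahr*+/+ BMMs, 19 of 48 rose from 3 h to 20 h and none fell (0 of 48), where 6.07% of all tested genes were called, 3.31% higher and 2.77% lower, and the median log2 fold change was 0.64. All 19 belonged to mitosis or chromosome structure: 6 of 8 genes of M phase entry, 6 of 9 of spindle and kinetochore, all 5 of anaphase and cytokinesis and both of chromosome structure, against 0 of 24 genes of G1 exit, licensing and DNA synthesis. *Mki67* was at 174, 161, 99.03 and 156 CPM at 3 h and at 246, 244, 268 and 294 CPM at 20 h. All 20 h values lay above all 3 h values, as the groups were apart for 21.1% of all tested genes, with a log2 fold change of 0.84, SE 0.18. *Ube2c*, the ubiquitin-conjugating enzyme of the anaphase-promoting complex, rose most of all 48 (1.18, SE 0.22). *Myc* and *Pcna* were not called (-0.34, SE 0.26 and 0.01, SE 0.10).

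Of the 48 genes, 29 rose in *Ahr*-/- BMMs over the same interval and none fell, against 6.98% of all tested genes called and 3.52% called higher, and the median was 0.92. Every one of the 24 genes of mitosis and chromosome structure was called, with *Ccnb2* at 1.70, SE 0.23, and so were *Ccne1*, *Mcm7*, *Rrm1*, *Rrm2* and *Tyms* of the earlier phases. The *Ahr*-/- libraries at 20 h were uneven, since *Cdk1*, the kinase that starts mitosis, stood at 96.5, 47.99, 56.9 and 49.9 CPM there against 31.5, 27.04, 30.8 and 30.1 CPM at 3 h. Replicate 1 was far above the others at 20 h, and all 4 were above every 3 h library. The megakaryocyte list, carried by *Pf4*, was also higher at 20 h in these cells (33.2 to 38.9 CPM at 3 h and 49.9 to 72.9 CPM at 20 h), and the fibroblast list had means of 2.06 and 5.04 CPM with ranges that overlapped. Their part in the result was not tested. The count was 14 when only the compared groups were fitted and 19 with the library identifier series as a term, and in *Ahr*+/+ BMMs it was 10 without replicate 3 at 3 h and 12 without replicate 4 at 20 h.

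Activation with hk *S*.E. lowered most of these genes within 3 h. In *Ahr*+/+ BMMs 33 of 48 fell and 1 rose, where 56.6% of all tested genes were called and 32.3% fell. The median of the 48 was -0.97, against -0.10 over all tested genes. Fewer cells in these phases and less RNA per cell cannot be told apart in bulk RNA. Among the *Ahr*-/- libraries 37 fell and 1 rose, against 57.3% of all tested genes called, with a median of -1.08. The summed level went from 2457 ± 244 to 1584 ± 184 CPM in *Ahr*+/+ and from 1605 ± 169.8 to 979 ± 116 CPM in *Ahr*-/- BMMs. On plain library totals, with no TMM scaling, the drop was steeper, with means of 3154 and 1274 CPM in *Ahr*+/+ and 2120 and 812 CPM in *Ahr*-/- BMMs.

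The 4 steepest falls at 3 h were those of *E2f2*, *Cdc6*, *Ccne2* and *Uhrf1*, which act before or during S phase. *E2f2*, which encodes an activating E2F factor, was at 31.9, 32.2, 27.1 and 30.3 CPM unactivated and 1.34, 1.24, 1.11 and 1.49 CPM activated in *Ahr*+/+ BMMs. The groups did not come near each other (log2 fold change -4.55, SE 0.21), where 62.8% of all tested genes had groups apart. *Cdc6*, which loads the MCM helicase, fell (-3.77, SE 0.26), and so did the cyclin E2 gene *Ccne2* (-2.38, SE 0.30) and *Uhrf1*, which carries DNA methylation to new strands (-2.17, SE 0.17). *Ccnd1* was at 134, 157, 151 and 154 CPM unactivated and at 44.9, 48.02, 39.5 and 41.2 CPM activated. Its activated libraries all lay under its unactivated ones, and it was called (-1.78, SE 0.17). By role, 5 of 6 genes of G1 exit, 10 of 11 of licensing and firing and 4 of 7 of DNA synthesis fell.

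Among the mitosis genes, 4 of 8 of M phase entry, 6 of 9 of spindle and kinetochore, 4 of 5 of anaphase and neither of chromosome structure fell. *Mki67* was at 138, 155, 118 and 151 CPM in activated *Ahr*+/+ BMMs, within the range of the unactivated libraries (-0.07, SE 0.18, adjusted p = 0.763 by edgeR's quasi-likelihood test). The spindle gene *Tpx2*, at 47.3, 49.1, 35.02 and 50.5 CPM unactivated and 44.6, 49.03, 29.8 and 48.9 CPM activated, overlapped as well (-0.08, SE 0.18). *Cdk1* overlapped only through unactivated replicate 3, at 56.1, 57.2, 44.1 and 58.2 CPM unactivated and 44, 46.4, 26.8 and 45.4 CPM activated (-0.41, SE 0.19). *Ccnb1*, *Ccnb2*, *Nusap1*, *Ube2c*, *Tyms*, *Ccne1* and *Pcna* were not called in either direction in *Ahr*+/+ BMMs, with values from -0.32 to 0.19. *Prc1*, the microtubule bundler of the midzone, was at 55.4, 54.2, 32.2 and 52.1 CPM unactivated and 35.9, 38.3, 19.6 and 36.4 CPM activated and fell (-0.57, SE 0.19), although replicate 3 was lowest in both groups and the ranges overlapped.

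*Cenpe*, the kinetochore motor that brings chromosomes to the spindle equator, was the 1 gene that rose at 3 h. It went from 34.1, 32.3, 19.8 and 36.99 to 65.9, 75.3, 40.1 and 67.96 CPM in *Ahr*+/+ BMMs and from 18.4, 13.2, 17.2 and 18.1 to 29.9, 18.4, 38.6 and 38.3 CPM in *Ahr*-/- BMMs. The conditions were apart in *Ahr*+/+ BMMs and overlapped in *Ahr*-/- BMMs by a small margin, where 55.2% of all tested genes had groups apart, with log2 fold changes of 1.02, SE 0.21 and 0.90, SE 0.22. On CPM from plain library totals, which lower the 3 h contrasts by a median of 0.67 on the log2 scale, *Cenpe* was still higher (0.34 and 0.23) and the other 47 genes were all lower in both genotypes.

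*Myc*, which encodes a transcription factor that drives growth, was not alike in all libraries. In *Ahr*+/+ BMMs it was at 25.3, 26.97, 33.7 and 35.5 CPM unactivated and 15.8, 13.8, 14.4 and 11.8 CPM activated, which did not overlap (-1.12, SE 0.27). The activated *Ahr*-/- libraries stood at 27.2, 27.1, 12.1 and 10.8 CPM with DMSO, 32.8, 38.2, 11.3 and 12.6 CPM with BaP and 30.2, 36.4, 11.03 and 12.3 CPM with I3C, against 18.8, 23.8, 18.6 and 20.8 CPM unactivated. In all 3 activated groups replicates 1 and 2 were at more than the level of unactivated cells and replicates 3 and 4 were near that of activated *Ahr*+/+ BMMs. The fold change in *Ahr*-/- BMMs was -0.09, SE 0.26 and its difference from *Ahr*+/+ was not called (1.04, SE 0.37, adjusted p = 0.547 by edgeR's quasi-likelihood test). *Cdt1* showed the same division of replicates, while 13 of the 48 genes, among them *Mcm6*, *Pcna*, *Pola1* and *Top2a*, had replicates 1 and 2 below 3 and 4 in all 3 groups. How many of all tested genes were divided in this way was not counted, so the division is not shown to be a trait of the list.

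**Figure D2:**
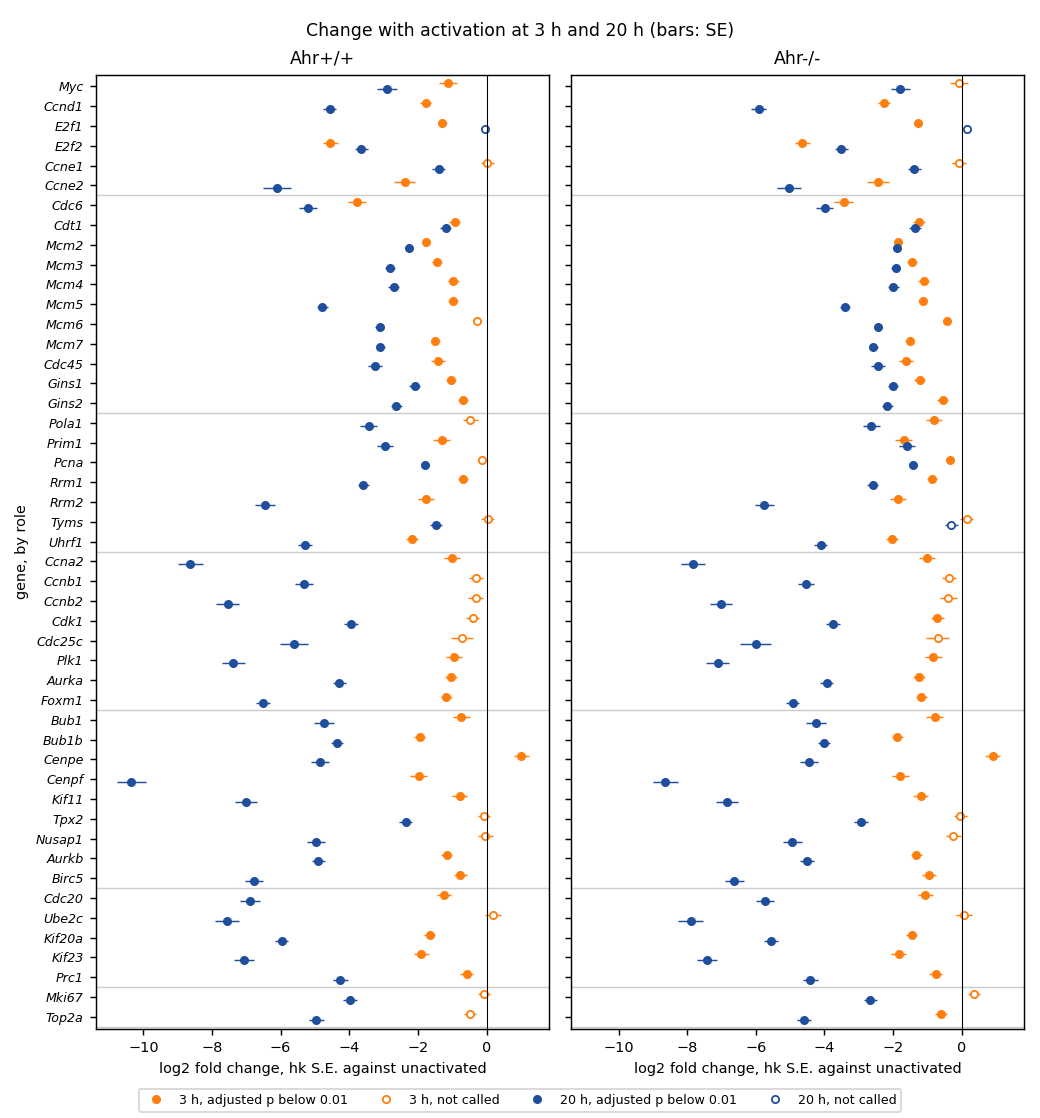
Log2 fold change of hk S.E. with DMSO against unactivated BMMs for each of the 48 genes (rows, by role), at 3 h and 20 h in each genotype, with bars of 1 SE and filled points for adjusted p below 0.01. Nearly all 20 h points lie left of the 3 h points, down to -10.36 for Cenpf in Ahr+/+ BMMs, except those of E2f1, E2f2 and, in Ahr-/- BMMs, Prim1, which lie to the right.

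By 20 h the fall was deep. In *Ahr*+/+ BMMs 47 of 48 fell and none rose, against 58.6% of all tested genes called, and the median was -4.46. For *Ahr*-/- BMMs, 46 of 48 fell and none rose, against 54.3% of all tested genes, and the median was -4.00. All libraries of the called genes lay below all unactivated libraries, 47 and 46 genes, where the groups were apart for 65.9% and 51.6% of all tested genes. The summed level fell from 3414 ± 259 to 366 ± 15.5 CPM and from 2475 ± 557 to 384 ± 13.6 CPM, which left 10.7% and 15.5%. The megakaryocyte list went the same way, from 75.8 to 94.6 CPM unactivated to 12.8 to 19.2 CPM activated in *Ahr*+/+ BMMs and from 49.9 to 72.9 CPM to 9.20 to 54.5 CPM in *Ahr*-/- BMMs. With 5 of its 6 genes under 1 CPM, 1 gene carried the sum. The part of that gene in the result was not tested.

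**Figure D3:**
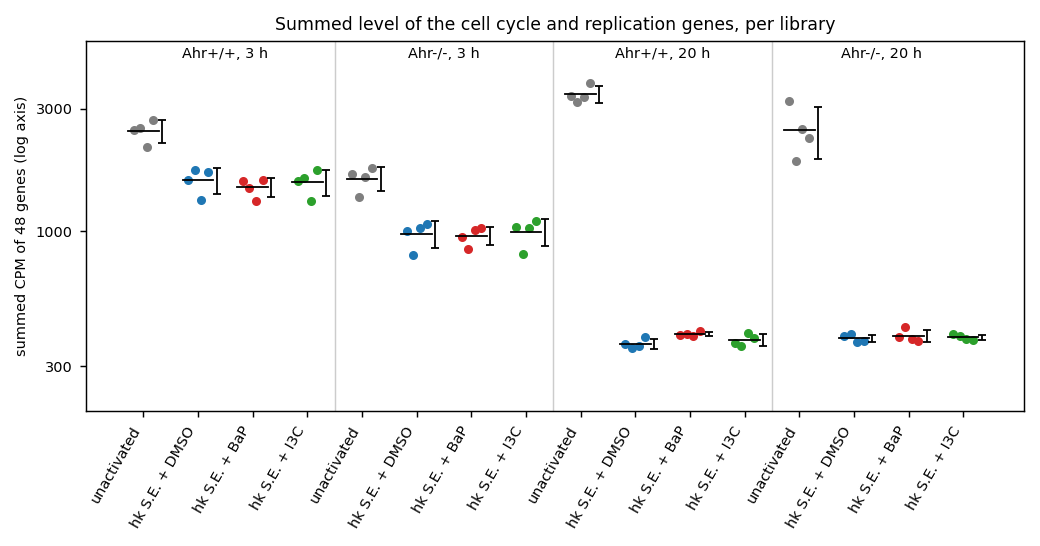
Summed CPM of the 48 genes in each library (points, log axis), with the mean of each group (line) and its SD (bar beside it). At 20 h the 24 activated libraries lie between 351 and 424 CPM, below every unactivated library and every 3 h library.

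By summed level the mitosis genes fell furthest. The anaphase and cytokinesis genes kept 2.20% of their summed unactivated level in *Ahr*+/+ BMMs and 2.32% in *Ahr*-/- BMMs, those of M phase entry 2.49% and 3.38%, those of spindle and kinetochore 5.20% and 4.68%, and those of chromosome structure 4.80% and 10.1%. The early genes kept more, with 14.3% and 20.8% for licensing and firing, 18.7% and 22.9% for G1 exit and 19.4% and 28.7% for DNA synthesis and nucleotide supply. Abundant genes weigh most in such sums. *Pcna* made up 116 of the 143 CPM left for DNA synthesis in *Ahr*+/+ BMMs. In these cells some early genes fell as far as many mitosis genes, such as *Rrm2* (-6.47 as the log2 ratio of group means), *Ccne2* (-6.04) and *Cdc6* (-5.17). Others hardly changed, such as *E2f1* (-0.04), and the mitosis gene *Tpx2* fell less than most (-2.36). *Cdk1* was at 85.9, 83.6, 81.7 and 103 CPM unactivated and 5.53, 5.49, 6.19 and 5.73 CPM activated in *Ahr*+/+ BMMs (-3.95, SE 0.21). *Prc1* went from 83.2, 78.8, 81.9 and 93.2 to 4.72, 4.33, 3.77 and 4.75 CPM (-4.26, SE 0.21). Each gap was many times the spread within a group.

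Several mitosis genes came close to the limit of detection. *Cenpf*, which encodes a large kinetochore protein, had 19094 counts over the 4 unactivated *Ahr*+/+ libraries and 4 over the 4 activated ones, 3 of which had none. Those counts put it 1584-fold lower, with an exact 95% interval of 618 to 5812 that covers counting error only. The *Ahr*-/- BMMs gave 4876 and 11 counts, 429-fold lower with an interval of 239 to 860. *Ccna2*, the cyclin of S phase and early mitosis, fell in *Ahr*+/+ BMMs (-8.64, SE 0.36), as did *Ube2c* (-7.56, SE 0.34), *Ccnb2* (-7.54, SE 0.34) and the mitotic kinase gene *Plk1* (-7.38, SE 0.33). A mean under 1 CPM was reached by 14 of 48 genes in each genotype. *Tpx2* kept the most among the spindle genes, at 16.1, 13.3, 12.4 and 16.8 CPM in *Ahr*+/+ and 7.63, 4.46, 8.21 and 6.57 CPM in *Ahr*-/- BMMs.

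Among the early genes *Pcna* remained the most abundant, and *E2f1* was the 1 gene not called at 20 h in *Ahr*+/+ BMMs. *Pcna* was at 387, 357, 420.5 and 432 CPM unactivated and 115, 113, 109 and 126 CPM activated in *Ahr*+/+ BMMs (-1.78, SE 0.10), and was the highest of the 48 in every group. *Mcm6* went from 185, 163, 199 and 215 to 22.1, 19.4, 21.9 and 24.2 CPM (-3.12, SE 0.12). Both falls left the groups far apart. *E2f1* fell at 3 h to 12.7, 14.7, 13.6 and 13 CPM (-1.29, SE 0.12) and stood at 40.3, 37.9, 41.7 and 39.8 CPM at 20 h, against 42.8, 38.9, 37.5 and 44.9 CPM unactivated, where it was not called (-0.04, SE 0.12). On plain library totals that 20 h contrast was -0.41. *Tyms*, the enzyme that makes thymidylate, was the second gene not called in *Ahr*-/- BMMs at 20 h (-0.30, SE 0.18).

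The *Ahr*-/- libraries of the same genes with DMSO gave these levels. *Mki67* was at 92.4, 72.8, 104 and 105 CPM activated at 3 h and 267, 123, 177 and 152 CPM unactivated at 20 h. *Cdk1* was at 20.4, 13.1, 19.1 and 20.3 CPM activated at 3 h and 5.32, 5.32, 3.46 and 4.53 CPM activated at 20 h. *Tpx2* was at 26.3, 18.5, 23.2 and 26.2 CPM unactivated at 3 h, 25.8, 19.9, 22.8 and 23.4 CPM activated at 3 h and 75.5, 34.6, 50.1 and 45.2 CPM unactivated at 20 h. Its 3 h groups overlapped (-0.04, SE 0.19), and replicate 1 was highest unactivated at 20 h, where the *Mki67* and *Prc1* levels were also highest in replicate 1. *Prc1* was at 29.3, 20.4, 23.7 and 25.4 CPM unactivated at 3 h, 17.4, 11.03, 13.3 and 17 CPM activated at 3 h, 97.3, 48.7, 62.2 and 53.2 CPM unactivated at 20 h and 3.799, 3.598, 2.32 and 2.59 CPM activated at 20 h. *Pcna* was at 340.3, 281, 329.8 and 354 CPM unactivated at 3 h, 248, 222, 274 and 285 CPM activated at 3 h, 352, 220.2, 331 and 312 CPM unactivated at 20 h and 102, 109.6, 127 and 121 CPM activated at 20 h. *Mcm6* was at 148, 122, 164 and 174 CPM unactivated at 3 h, 113, 95.9, 125 and 123 CPM activated at 3 h, 189, 140.4, 171 and 166 CPM unactivated at 20 h and 30.2, 34.1, 28.6 and 29.6 CPM activated at 20 h. Both *Pcna* (-0.34, SE 0.10) and *Mcm6* (-0.41, SE 0.11) fell at 3 h although 1 or more libraries overlapped, and both fell at 20 h (-1.40, SE 0.10 and -2.44, SE 0.12) with the groups apart. *Ccnd1* was at 118, 96.8, 105 and 111 CPM unactivated at 3 h and 155, 98.8, 153 and 139 CPM unactivated at 20 h. *Myc* was at 16.96, 17.6, 16.5 and 15.4 CPM unactivated at 20 h and 5.41, 4.68, 5.26 and 3.86 CPM activated at 20 h. *Ccnd1* did not overlap between unactivated and activated *Ahr*-/- BMMs at either time, and *Myc* did not at 20 h.

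In *Ahr*+/+ BMMs, *Pcna* was at 386, 382, 355 and 460.2 CPM unactivated and 344, 375, 335 and 381 CPM activated at 3 h, which overlapped. *Mcm6* was at 180.3, 185, 191 and 205 CPM unactivated and 154, 172, 141 and 166 CPM activated at 3 h, just apart but not called (-0.27, SE 0.11). *Ccnd1* was at 196, 169, 211 and 209 CPM, *Myc* at 24.3, 19.6, 26.1 and 25.9 CPM and *Tpx2* at 70.8, 71.9, 72.8 and 84.5 CPM unactivated at 20 h. *Myc* was at 3.28, 2.73, 3.62 and 3.28 CPM activated at 20 h, below every unactivated library.

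The change with activation itself differed between 3 h and 20 h for 47 genes in *Ahr*+/+ BMMs, 45 lower and 2 higher, where 47.8% of all tested genes were called, and for 41 in *Ahr*-/- BMMs, 39 lower and 2 higher, where 44.7% were called. *E2f1* and *E2f2* were the 2 that moved up in both. From 3 h to 20 h in activated cells, 45 of 48 fell and 2 rose in *Ahr*+/+ BMMs (59.5% of all tested genes called, and 66.7% with groups apart) and 37 fell and 2 rose in *Ahr*-/- BMMs (56.0%). The library identifiers in the labels fall into number series, whose meaning is not given in the sources used here. Activated *Ahr*-/- libraries with DMSO all had series 0015 at 3 h and 0020 at 20 h, so for them time and series cannot be told apart. Unactivated *Ahr*-/- libraries all had series 0020 at 20 h, while at 3 h replicate 1 had 0020 and replicates 2, 3 and 4 had 0015. For them time and series largely coincide.

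Loss of AhR went with lower levels of these genes at 3 h, in unactivated and activated cells alike. Unactivated *Ahr*-/- BMMs had all 48 genes at a lower fitted level than *Ahr*+/+ BMMs, of which 26 were called lower and none higher, where 1.21% of all tested genes were called and 0.970% called lower. The median log2 fold change was -0.82, against 0.00 over all tested genes. With hk *S*.E. and DMSO 30 were lower and none higher, against 2.83% of all tested genes called, 1.61% lower and 1.22% higher, with a median of -0.88 and *Myc* as the 1 gene above zero. These comparisons share libraries with those of activation and of time. Both counts depended on the fit. With only the compared groups fitted 6 and 5 were called, and among libraries of series 0015 alone 1 and 6. Without *Ahr*-/- replicate 2, 9 were called in unactivated and 13 in activated BMMs. Without *Ahr*+/+ replicate 4 there were 14 and 19, without *Ahr*+/+ replicate 2 there were 16 and 14, and without *Ahr*-/- replicate 3 unactivated there were 16. Across these fits the median stayed between -0.95 and -0.69.

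Mitosis genes made up most of the calls at 3 h. In unactivated BMMs, 20 of 24 genes of mitosis and chromosome structure were called against 6 of 24 early genes, and in activated BMMs 20 of 24 against 10 of 24. *Mki67* was at 174, 161, 99.03 and 156 CPM in *Ahr*+/+ and 83.7, 58.6, 71.3 and 75.9 CPM in *Ahr*-/- unactivated BMMs (-1.02, SE 0.18), with no overlap. *Cdk1*, at 56.1, 57.2, 44.1 and 58.2 and 31.5, 27.04, 30.8 and 30.1 CPM, was apart too (-0.85, SE 0.19). *Foxm1*, which encodes a transcription factor for mitosis genes, had the lowest adjusted p (-1.06, SE 0.15, adjusted p = 7.55e-06 by edgeR's quasi-likelihood test), from 28.1, 28.2, 20.96 and 29.4 CPM to 11.97, 11.7, 13.7 and 13.8 CPM. *Tpx2* (-0.95, SE 0.18) and *Prc1* (-0.97, SE 0.19) were lower as well. *Pcna* (-0.28, SE 0.10), *Mcm6* (-0.32, SE 0.11), *Ccnd1* (-0.47, SE 0.16) and *Myc* (-0.57, SE 0.26) were not called unactivated. In activated cells *Ccnd1* was called, at 44.9, 48.02, 39.5 and 41.2 CPM in *Ahr*+/+ and 26.5, 17.9, 22.7 and 23.1 CPM in *Ahr*-/- BMMs (-0.95, SE 0.17). *Pf4*, the platelet factor gene of the megakaryocyte list, moved the same way between genotypes (77.3 ± 8.98 and 35.7 ± 2.31 CPM unactivated at 3 h, SD, n = 4), with the 5 other genes of that list under 1 CPM, and its part was not tested.

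At 20 h the genotypes were closer. Unactivated, all 48 genes again had a lower fitted level in *Ahr*-/- BMMs, with a median of -0.49, but 1 was called, *Foxm1* (-0.77, SE 0.15), where 0.702% of all tested genes were called and 8.28% had groups apart. *Foxm1* stood at 46.9, 46.8, 41.2 and 49.3 CPM in *Ahr*+/+ and 37.6, 22.6, 24.6 and 23.3 CPM in *Ahr*-/- BMMs, all lower. The count was 14 without *Ahr*-/- replicate 1 and 0 without *Ahr*-/- replicate 2, 3 or 4 or without *Ahr*+/+ replicate 4. For *Cdk1*, replicate 1 of the *Ahr*-/- group stood at 96.5 CPM in the range of the *Ahr*+/+ libraries (85.9, 83.6, 81.7 and 103 CPM) and the others were between 47.99 and 56.9 CPM.

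In activated BMMs at 20 h the differences ran both ways. *Mcm3*, *Mcm5*, *Mcm6*, *Tyms* and *Mki67* were higher in *Ahr*-/- BMMs and *Ccnd1*, *Cdt1* and *Tpx2* were lower. These were 8 of 48, where 12.5% of all tested genes were called, 5.06% higher and 7.39% lower. The count in either direction was near the share of all tested genes, so it does not set the 48 genes apart. Whether the list differs from other genes here was not tested. *Ccnd1* was at 8.94, 7.21, 9.99 and 6.94 CPM in *Ahr*+/+ and 1.61, 2.02, 3.35 and 2.15 CPM in *Ahr*-/- BMMs (-1.86, SE 0.20). *Tpx2* (-1.12, SE 0.19) and *Cdt1*, the licensing factor that brings MCM proteins to origins (-0.65, SE 0.16), were lower. *Mki67* was at 15.7, 14.1, 18.4 and 18.1 CPM in *Ahr*+/+ and 34.3, 29.1, 22.2 and 27.98 CPM in *Ahr*-/- BMMs, and the groups did not overlap (0.77, SE 0.18). *Mcm5* was at 2.83, 3.25, 3.96 and 3.64 CPM in *Ahr*+/+ and 6.58, 7.95, 5.41 and 5.87 CPM in *Ahr*-/- BMMs (0.90, SE 0.16). *Tyms* was higher through *Ahr*-/- replicates 1 and 2, at 17.8, 17.8, 9.09 and 8.905 CPM against 6.29, 7.695, 8.11 and 8.797 CPM. Activated *Ahr*+/+ libraries at 20 h all carry the identifier series 0015 and *Ahr*-/- libraries the series 0020, so genotype and series cannot be told apart there. With the series as a term 3 genes were called, and there were 5 without *Ahr*-/- replicate 1 or 2 or without *Ahr*+/+ replicate 1. On plain library totals 28 of the 48 were higher in *Ahr*-/- BMMs, against 23 with TMM.

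**Figure D4:**
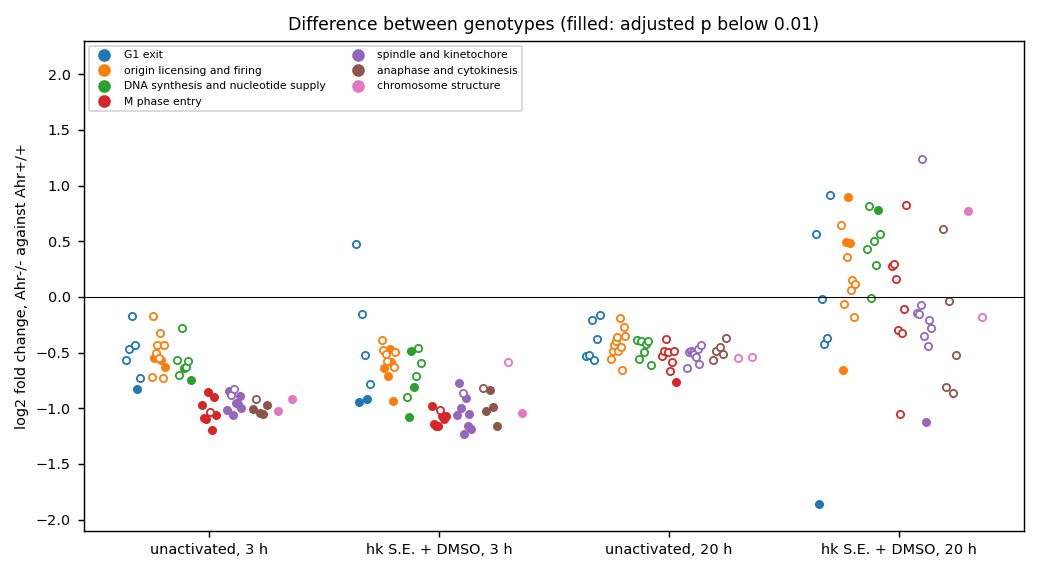
Log2 fold change of Ahr-/- against Ahr+/+ BMMs for the 48 genes in 4 conditions, coloured by role, with filled points for adjusted p below 0.01. Both 3 h conditions lie below 0 apart from Myc, with mitosis genes near -1, and at 20 h with hk S.E. the points spread to both sides from -1.86 for Ccnd1 to 1.23 for Cenpf, which had 4 and 11 counts in all.

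The size of the activation response was compared between genotypes. At 3 h it differed for none of the 48 genes (0 called, 2 at an unadjusted p below 0.05, where 0.0138% of all tested genes were called). At 20 h it differed for 10, where 4.41% of all tested genes were called. The fall was smaller in *Ahr*-/- BMMs for *Mcm3*, *Mcm5*, *Mcm6*, *Prim1*, *Rrm1*, *Tyms*, *Uhrf1*, *Foxm1* and *Mki67*, with differences in log2 fold change from 0.68 for *Mcm6* to 1.59 for *Foxm1*. It was larger for *Ccnd1* (-1.34, SE 0.26). The 9 genes with the smaller fall were already lower in unactivated *Ahr*-/- BMMs at 20 h. Their log2 ratios of group means there ran from -0.77 for *Foxm1* to -0.19 for *Mcm6*, and *Ccnd1* was lower too (-0.53). The part of this lower start in the differences was not tested. For 7 of these 9 the gene works in licensing or DNA synthesis. The medians by role were 1.00 for DNA synthesis, 0.84 for chromosome structure, 0.68 for licensing, 0.45 for M phase entry, 0.34 for spindle and kinetochore, 0.17 for G1 exit and -0.16 for anaphase and cytokinesis. The other ways of fitting called 8 to 13 genes, and 7 to 10 of them were among these 10.

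No gene of the 48 was called with a ligand in the fit without a replicate block (0 of 48 in each comparison). Over the 8 comparisons of BaP or I3C with DMSO in activated BMMs, 0 to 6 of the 48 had an unadjusted p below 0.05 in edgeR, and DESeq2 called 1, *Pola1* with I3C in *Ahr*+/+ BMMs at 20 h. With BaP, 0.0482% and 0.0275% of all tested genes were called at 3 h in *Ahr*+/+ and *Ahr*-/- BMMs and 0.234% and 0.0138% at 20 h. With I3C, 0.131% of genes in *Ahr*+/+ and 0.0206% in *Ahr*-/- BMMs were called at 3 h, then 0.509% and 0.206% at 20 h. The median log2 fold change over the 48 lay between -0.12 and 0.05. At 3 h, the 95% interval of the difference lay within a 2-fold change either way for 46 of 48 genes with BaP in each genotype, for all 48 with I3C in *Ahr*+/+ BMMs and for 46 in *Ahr*-/- BMMs. At 20 h this held for 37 and 40 genes with BaP and 36 and 34 with I3C. In the same libraries *Ahrr* stood at 0.562, 0.566, 0.346 and 0.582 CPM with DMSO and 4.18, 6.96, 4.79 and 5.56 CPM with BaP in *Ahr*+/+ BMMs at 3 h.

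The ligand libraries of the 8 genes described in full, the Ki-67, *Myc* and cyclin D1 genes and the most abundant gene of other roles, show how close the groups were. *Mki67* in *Ahr*+/+ BMMs was at 138, 107, 115 and 158 CPM with BaP and 145, 138, 105 and 171 CPM with I3C at 3 h, and at 19.1, 18.98, 22.97 and 22.7 CPM with BaP and 17.98, 15.3, 20.4 and 21.7 CPM with I3C at 20 h. Without AhR it was at 85.6, 75.9, 87.4 and 102 CPM with BaP and 101, 74.4, 89.4 and 109 CPM with I3C at 3 h, and at 29.9, 36.2, 27.3 and 24.8 CPM with BaP and 32.5, 37.1, 21.6 and 25.5 CPM with I3C at 20 h. All 20 h BaP values in *Ahr*+/+ BMMs lay above those with DMSO (0.34, SE 0.18), and the other ligand groups overlapped DMSO. *Cdk1* in *Ahr*+/+ BMMs was at 39.8, 36.1, 28.98 and 43.1 CPM with BaP and 36.9, 42.2, 23.1 and 43.7 CPM with I3C at 3 h, and at 5.39, 5.59, 5.94 and 5.12 CPM with BaP and 4.42, 5.33, 5.43 and 5.43 CPM with I3C at 20 h. The *Ahr*-/- libraries were at 20.6, 16.7, 20.8 and 19.1 CPM with BaP and 19.3, 14.6, 18.97 and 19.7 CPM with I3C at 3 h, and at 5.75, 6.08, 4.11 and 3.59 CPM with BaP and 7.43, 5.49, 3.28 and 4.58 CPM with I3C at 20 h. With I3C at 20 h in *Ahr*+/+ BMMs all values lay just below DMSO (-0.15, SE 0.21), and the other ligand groups overlapped it. *Tpx2* in *Ahr*+/+ BMMs was at 50.6, 46.02, 29.5 and 44.01 CPM with BaP and 45.3, 51.05, 29.4 and 48.02 CPM with I3C at 3 h, and at 17.4, 19.7, 13.6 and 21.5 CPM with BaP and 15.3, 11.6, 14.4 and 17.7 CPM with I3C at 20 h. Its *Ahr*-/- libraries were at 27.4, 22.96, 23.98 and 23.6 CPM with BaP and 26.5, 19.8, 21.7 and 24.7 CPM with I3C at 3 h, and at 7.72, 6.36, 7.24 and 8.099 CPM with BaP and 7.12, 5.84, 9.32 and 7.26 CPM with I3C at 20 h. Every ligand group of *Tpx2* overlapped DMSO. *Prc1* in *Ahr*+/+ BMMs was at 33.6, 31.4, 20.6 and 32.02 CPM with BaP and 32.1, 31.1, 21.03 and 34.98 CPM with I3C at 3 h, and at 5.29, 5.03, 4.63 and 4.34 CPM with BaP and 4.01, 4.01, 4.6 and 4.46 CPM with I3C at 20 h. In *Ahr*-/- BMMs it was at 14.9, 13.6, 16.02 and 15.4 CPM with BaP and 18.9, 10.5, 14.4 and 17.8 CPM with I3C at 3 h, and at 3.56, 3.42, 3.08 and 2.54 CPM with BaP and 3.72, 3.33, 2.68 and 3.08 CPM with I3C at 20 h. Likewise every ligand group of *Prc1* overlapped DMSO.

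*Pcna* in *Ahr*+/+ BMMs was at 355, 342, 354 and 358 CPM with BaP and 365, 363, 372 and 399 CPM with I3C at 3 h, and at 131, 139, 140.3 and 146 CPM with BaP and 131, 130.1, 148 and 129.5 CPM with I3C at 20 h. Without AhR it was at 234, 222, 273 and 258 CPM with BaP and 273, 232, 292 and 292 CPM with I3C at 3 h, and at 94.2, 118, 121 and 114 CPM with BaP and 98.4, 103, 125 and 119.7 CPM with I3C at 20 h. At 20 h both ligand groups of *Ahr*+/+ BMMs lay above DMSO (0.26, SE 0.10 with BaP and 0.22, SE 0.10 with I3C), where 9.05% and 5.58% of all tested genes were apart either way. *Mcm6* in *Ahr*+/+ BMMs was at 146, 158, 135 and 150.3 CPM with BaP and 148, 157, 134 and 162 CPM with I3C at 3 h, and at 18.9, 15.8, 22.4 and 20.9 CPM with BaP and 21.2, 18.1, 24.3 and 21.8 CPM with I3C at 20 h. The *Ahr*-/- libraries were at 101, 87.5, 122 and 121 CPM with BaP and 113, 93.8, 124 and 128 CPM with I3C at 3 h, and at 29.4, 35.9, 33.2 and 30.8 CPM with BaP and 29.6, 30.7, 29.96 and 30.7 CPM with I3C at 20 h. All ligand groups of *Mcm6* overlapped DMSO. *Ccnd1* in *Ahr*+/+ BMMs was at 42.2, 47.9, 37.6 and 40.4 CPM with BaP and 46.2, 50.03, 41.1 and 39.4 CPM with I3C at 3 h, and at 12, 14.9, 11.98 and 13.5 CPM with BaP and 8.38, 6.45, 9.803 and 7.09 CPM with I3C at 20 h. Its *Ahr*-/- libraries were at 22.9, 17.9, 24.2 and 22.1 CPM with BaP and 24.4, 15.9, 22.3 and 21.6 CPM with I3C at 3 h, and at 2.58, 1.91, 4.34 and 2.34 CPM with I3C at 20 h. At 3 h all ligand groups overlapped DMSO. *Myc* in *Ahr*+/+ BMMs was at 14.7, 12.3, 12.1 and 12.2 CPM with BaP and 13.2, 12.5, 13.3 and 11.9 CPM with I3C at 3 h, and at 3.08, 3.42, 2.18 and 2.95 CPM with BaP and 2.61, 2.56, 2.45 and 2.76 CPM with I3C at 20 h. In *Ahr*-/- BMMs at 20 h it was at 5.19, 5.99, 5.04 and 4.33 CPM with BaP and 5.59, 4.64, 5.54 and 4.46 CPM with I3C. All ligand groups of *Myc* overlapped DMSO.

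*Pola1* and *Ccnd1* had the lowest adjusted p-values. *Ccnd1* was higher with BaP at 20 h in *Ahr*+/+ BMMs, at 12, 14.9, 11.98 and 13.5 CPM against 8.94, 7.21, 9.99 and 6.94 CPM with DMSO and 8.38, 6.45, 9.803 and 7.09 CPM with I3C. No BaP library overlapped the DMSO libraries, yet the adjusted p of edgeR's quasi-likelihood test was 0.0574 (log2 fold change 0.67, SE 0.18). Its *Ahr*-/- levels were 2.501, 1.23, 2.36 and 3.13 CPM with BaP and 1.61, 2.02, 3.35 and 2.15 CPM with DMSO, which overlapped, and the difference between genotypes was not called. *Pola1*, the catalytic subunit of the polymerase that starts DNA strands, was lower with I3C at 20 h, at 0.652, 1.12, 1.36 and 0.999 CPM against 3.06, 2.503, 1.82 and 1.87 CPM in *Ahr*+/+ BMMs. The *Ahr*-/- levels were 1.21, 1.13, 1.98 and 1.91 CPM against 2.44, 2.51, 3.57 and 3.64 CPM. All I3C libraries lay below all DMSO libraries in *Ahr*+/+ BMMs and in *Ahr*-/- BMMs. The adjusted p-values were 0.0524 and 0.13 by the same test, with log2 fold changes of -1.12, SE 0.30 and -0.95, SE 0.27. With the replicate number as a block edgeR called *Pola1* with I3C in *Ahr*-/- BMMs (adjusted p = 0.00507). It also called *Pola1* with I3C (adjusted p = 0.00288) and *Ccnd1* with BaP (adjusted p = 0.00153) in *Ahr*+/+ BMMs. In neither genotype were the numbers shown to pair the libraries. With BaP at 20 h *Pola1* was at 2.09, 2.33, 3.14 and 2.39 CPM in *Ahr*+/+ BMMs, which overlapped the DMSO libraries.

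**Figure D5:**
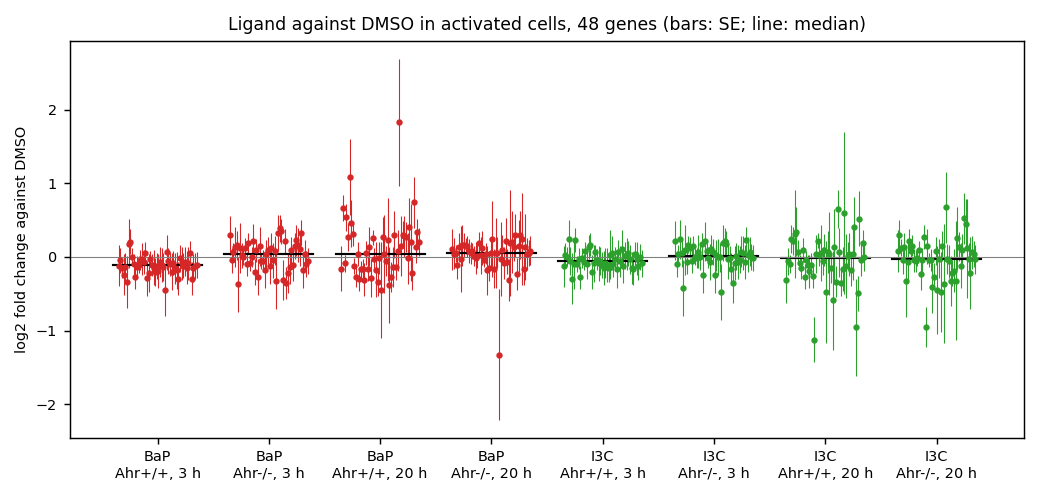
Log2 fold change of BaP (red) and I3C (green) against DMSO in activated BMMs for the 48 genes, with bars of 1 SE and a black line at the median of each comparison. The medians lie close to 0, no gene was called, and the widest bars belong to genes with few counts at 20 h, such as Cenpf and Cdc25c.

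The spread between replicates was itself patterned. Within groups the median coefficient of variation over the 48 genes ran from 9.89% in unactivated *Ahr*+/+ BMMs at 20 h to 26.5% in unactivated *Ahr*-/- BMMs at 20 h. The summed level of all 4 *Ahr*+/+ groups at 3 h was lowest in replicate 3, and that of all 4 *Ahr*-/- groups at 3 h was lowest in replicate 2. In unactivated *Ahr*+/+ BMMs at 3 h the sums were 2479, 2530, 2120 and 2699 CPM. Replicate 3 stood lowest for *Cdk1*, *Prc1*, *Tpx2* and *Mki67* but not for *Mcm6* or *Myc*. The unactivated *Ahr*-/- BMMs at 20 h summed to 3214, 1882, 2508 and 2297 CPM, the widest range of any group.

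Genes of the same pathways outside the 48 are set beside all tested genes, of which 28.7% fell and 29.9% rose at 20 h in *Ahr*+/+ BMMs. There, 37 of 44 further replication genes fell and none rose (0 of 44), among them *Clspn* (-7.20), *Pole* (-6.49) and *Tk1* (-6.44). Of 48 further mitosis genes 47 fell and 1, *Pttg1*, rose, with *Pbk* (-8.85), *Aspm* (-8.40) and *Troap* (-8.00) the lowest. Of 20 further cyclins, CDKs, E2F factors and other cell cycle regulators 10 fell and 4 rose. The largest falls were those of *E2f7* (-8.72), *Mybl2* (-3.82) and *E2f8* (-3.76). Among 10 CDK inhibitors and pocket proteins 7 fell, with *Cdkn2c* (-4.49), *Cdkn2a* (-2.78) and *Cdkn1c* (-1.70) in front, and 1 rose. The riser was *Cdkn1a*, which encodes the inhibitor p21. It went from 198, 189.9, 253 and 180.5 to 1515, 1537, 1800 and 1569 CPM at 3 h and from 215, 212, 209 and 212 to 508, 457, 455 and 409 CPM at 20 h, and no activated library overlapped an unactivated one. It rose in *Ahr*-/- BMMs as well, by log2 fold changes of 3.16 at 3 h and 0.48 at 20 h.

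*Ccnd2* and *Pttg1* rose as well and are named here after their values were seen. *Ccnd2*, the gene of a second D-type cyclin, rose from 5.84, 8.01, 4.24 and 4.88 to 268, 310.4, 233 and 212 CPM at 3 h in *Ahr*+/+ BMMs (5.45, SE 0.24) while *Ccnd1* fell, and stood at 31.5, 38.2, 27.8 and 30.8 CPM at 20 h (2.12, SE 0.21 against unactivated). *Pttg1*, which encodes securin, rose from 14.9, 13.4, 15.8 and 14.1 to 90.9, 86.02, 74.8 and 85.5 CPM at 3 h (2.54, SE 0.12). The groups were far apart for both genes, and both rose in *Ahr*-/- BMMs too. The genotype difference at 3 h extended to the further mitosis genes, with 25 of 48 lower in unactivated and 32 of 48 lower in activated *Ahr*-/- BMMs and none higher, where 0.970% and 1.61% of all tested genes were lower. Of the 44 further replication genes 5 and 10 were lower. Counts of these further genes were not checked under the other fits. Several of those fits lowered the genotype counts of the 48 genes.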

How the data were processed

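Gene expression was measured by stranded poly(A) RNA sequencing in 64 libraries, 4 for each of 16 groups. The authors trimmed the reads, aligned them with HISAT2 2.1.0 to mm10 and deposited raw counts per Ensembl gene made with htseq-count 0.9.1 on GENCODE M22. Between 19.2% and 25.05% of read pairs per library were assigned to no gene and were left out. The largest part, 12.42% to 15.82% of read pairs, aligned to more than 1 place. Symbols came from GENCODE M21 (55094 identifiers matched exactly, 300 without their version, and 93 did not match). Counts were fitted in R 4.3.3 with edgeR 4.0.16 (limma 3.58.1) on all 16 groups, after a filter with min.count 10, with TMM scaling and quasi-likelihood tests adjusted by Benjamini-Hochberg over all 14537 tested genes. Calls used an adjusted p below 0.01. Log2 fold changes used the default prior count of edgeR. A prior count of 2 was used for the log2 CPM behind the correlations between libraries. The scripts were tested on simulated data.

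The 48 genes and the other lists were chosen with earlier results of these data known. Full values were given for *Mki67*, *Myc*, *Ccnd1* and the gene of highest mean CPM in each role, and at most 3 genes of each other list were named, those with the largest called change with activation in *Ahr*+/+ BMMs at 20 h, besides *Cdkn1a*, *Ahr* and *Ahrr*. *Pttg1* and *Ccnd2*, and the values of other members given per library, were picked after their values were seen. The alternatives were DESeq2 1.42.0 and its size factors, no filter on low counts, plain library totals, a threshold of 0.05, fits of the compared groups only, a replicate block, the library identifier series as a term, each library left out in turn and, chosen after seeing the data, fits within 1 identifier series. A deposited table of variance-stabilized values was not used. Same-numbered ligand and DMSO libraries of *Ahr*-/- BMMs deviated together (correlation over 0.1 in 16 of 16 pairs). The labels state no pairing, and differently numbered pairs were not examined. The total counts per library limit the precision of low levels, and counting intervals cover counting error only.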

Additional observations from a re-analysis of the deposited data

Results flagged for a closer look

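Of 144 groups of 4 libraries examined for the 8 genes given in full and the summed level of all 48, 10 held a library far from its neighbours, meaning that its gap to the nearest of the others exceeded Dixon's critical value as a share of the whole range. Chance marks about 1 in 20 such groups. Replicate 3 of *Ahr*+/+ BMMs at 3 h accounted for 5 of the 10. Its *Cdk1* level was 44.1 CPM unactivated, where the others lay between 56.1 and 58.2 CPM, and 26.8 CPM activated with DMSO, where they lay between 44.0 and 46.4 CPM. *Prc1* in that replicate was at 32.2 CPM unactivated against 52.1 to 55.4 CPM, at 19.6 CPM with DMSO against 35.9 to 38.3 CPM and at 20.6 CPM with BaP against 31.4 to 33.6 CPM.

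The other 5 were scattered. *Cdk1* was low in *Ahr*+/+ replicate 1 with I3C at 20 h (4.42 CPM against 5.33 to 5.43 CPM) and in *Ahr*-/- replicate 2 with I3C at 3 h (14.6 CPM against 19.0 to 19.7 CPM). *Myc* was high in *Ahr*+/+ replicate 1 with BaP at 3 h (14.7 CPM against 12.1 to 12.3 CPM). *Pcna* was high in *Ahr*+/+ replicate 3 with I3C at 20 h (148 CPM against 129.5 to 131 CPM). *Tpx2* was high in unactivated *Ahr*+/+ replicate 4 at 20 h (84.5 CPM against 70.8 to 72.8 CPM), the library with 233047331 counts.

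The response to activation at 20 h differed between genotypes for 10 genes, by the test of the difference itself in edgeR. The differences in log2 fold change, *Ahr*-/- minus *Ahr*+/+, were -1.34 for *Ccnd1*, 0.89 for *Mcm3*, 1.39 for *Mcm5*, 0.68 for *Mcm6*, 1.38 for *Prim1*, 1.00 for *Rrm1*, 1.17 for *Tyms*, 1.17 for *Uhrf1*, 1.59 for *Foxm1* and 1.32 for *Mki67*. The activated groups behind them carry different library identifier series. The response also differed between 3 h and 20 h, for 47 of the 48 genes in *Ahr*+/+ BMMs and for 41 in *Ahr*-/- BMMs.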

How the results depend on the processing

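Activation counts at 3 h and 20 h stayed within 1.5 times the reported count under every alternative run. Culture time and genotype counts did not. The rise with culture time in unactivated *Ahr*+/+ BMMs (19 genes) became 9 in identifier series 0015 alone and 10 to 18 with 1 library left out. In *Ahr*-/- BMMs (29) it was 14 with only the compared groups and 19 with the series as a term. The genotype count unactivated at 3 h (26) was 6 with only the compared groups, 1 in series 0015 alone and 9 to 26 with 1 library left out. Activated at 3 h (30) it was 5, 18 with the series as a term, 6 in series 0015 and 13 to 31. Unactivated at 20 h (1) it was 9 at a threshold of 0.05, 4 with DESeq2, 0 with only the compared groups, 0 with the series as a term and 0 to 14 with 1 library left out. Activated at 20 h (8) it was 3 with the series as a term and 5 to 9. For the ligands (0), BaP at 20 h in *Ahr*+/+ BMMs gave 1 in series 0015 and I3C gave 1 with DESeq2. The cause was not tested. Among values of the 8 genes given in full, no called value changed direction in a refit on all libraries or on chosen groups or series. Values not called were not checked for direction. In these refits 37 values lost and 7 gained a call, and 13 summed levels moved under plain totals. On plain totals, which were not refitted, genes near 0 turned lower: with activation at 3 h *Ccne1* (0.02 to -0.66), *Tyms* (0.04 to -0.63) and *Ube2c* (0.19 to -0.49) in *Ahr*+/+ BMMs and *Tyms* (0.15 to -0.52), *Ube2c* (0.09 to -0.59) and *Mki67* (0.37 to -0.30) in *Ahr*-/- BMMs, and at 20 h *E2f1* in *Ahr*-/- BMMs (0.15 to -0.16). By genotype at 20 h activated *E2f1*, *Mcm2*, *Pcna*, *Cenpe* and *Kif20a* turned from slightly below 0 to slightly above it, and with time in activated *Ahr*-/- BMMs *Cdt1* (-0.04 to 0.33) and *Mcm3* (-0.07 to 0.30) turned higher. Low counts at 20 h limit what could be detected.

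In 1 kind of comparison every same-numbered pair of libraries deviated together. Differently numbered pairs were not examined, so this does not show that the numbers pair the libraries. Same-numbered ligand and DMSO libraries of *Ahr*-/- BMMs deviated together with a correlation over 0.1 in 16 of 16 pairs, against 10 of 16 in *Ahr*+/+ BMMs. Between unactivated and activated groups this held for 7 of 8 *Ahr*-/- and 4 of 8 *Ahr*+/+ pairs, and between 3 h and 20 h for 7 of 8 and 5 of 8. With the replicate number as a block within genotype, 30 genes rose with culture time in unactivated *Ahr*+/+ BMMs, 13 differed in activation response by genotype at 20 h, and 1 was called with BaP in *Ahr*+/+ BMMs at 20 h (*Ccnd1*), 1 with I3C in *Ahr*+/+ BMMs and 1 with I3C in *Ahr*-/- BMMs (*Pola1* in both). With a block across genotypes 4 differed by genotype unactivated at 20 h.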
